A study of Mus musculus with 18 samples.

Results

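The 50 genes described here encode proteins that carry a cell through mitosis: the cyclin and kinase engine, the spindle, the kinetochore, the condensin complex and the machinery of cytokinesis. They were chosen by symbol from a list of functions, drawn up with earlier results of these data known, and all 50 were found among the 54347 genes of the count table. RNA was profiled in leukemia stem cells that had been sorted from C57BL/6JRj bone marrow, with 7000 cells taken per mouse at 30 days after leukemia was induced. The tested mice carried the genotype given as Prx1-Cxcl12-mutant (5 mice, numbered 6, 7, 8, 10 and 12), and the control mice that given as Prx1-Cxcl12-wild type (4 mice, numbered 1 to 4). The labels spell out no further allele, and give neither the leukemia driver, the sorting markers, nor the age or sex of the mice. Each mouse gave 2 technical libraries of transcript 3′ ends, which were summed. Prx1 regulatory sequence is widely used to direct recombination to mesenchymal cells of the limb skeleton; the labels do not name the driver further.

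Cxcl12 encodes a chemokine by which marrow stroma holds haematopoietic cells in place, and the series is titled as a study of niche control over leukemia stem cells. Entry into mitosis depends on cyclin-dependent kinase 1 bound to cyclin B, held inactive by inhibitory phosphorylation until CDC25 phosphatases remove it. Aurora and Polo-like kinases then build the spindle, condensins compact the chromosomes, and kinetochores attach them to microtubules under the watch of a checkpoint that blocks the anaphase-promoting complex until every chromosome is attached. Most of these genes are transcribed in a wave that peaks in G2 and M phase, repressed in quiescent cells by the DREAM complex and activated in cycling cells by B-MYB and FOXM1.

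Total counts were 20734088 ± 4170598 in mutant mice (SD, n = 5) and 15160572 ± 2307737 in control mice (SD, n = 4), with ranges of 15959029 to 25485899 in mutant mice and 11766467 to 16784991 in control mice. Every member had at least 88 counts in every mouse and all 50 passed the filter on low counts. Cxcl12 itself had 1, 1, 2, 2 and 4 counts in mutant mice and 0, 0, 0 and 1 in control mice, at or near a floor of 3 counts per mouse. Measured in sorted leukemia stem cells, these counts are no check of the genotype of the mice. Cxcr4, the gene of its receptor, was at 8.72 ± 2.75 CPM (counts scaled to the library total with TMM factors) in mutant mice and 12.7 ± 3.51 CPM in control mice (log2 fold change -0.53, SE 0.23, edgeR adjusted p = 0.465). Of 9 genes that mark immature myeloid leukemia cells, 4 were above 0 and 5 below, with 1 higher and 1 lower at an unadjusted p under 0.05. Ctsg, a granule protease gene, averaged 4564 ± 1760 CPM in mutant mice and 2997 ± 525 CPM in control mice, and was highest in mutants 8 and 10, as were Mpo, Elane and Prtn3. Hoxa9 was at 173 to 235 CPM in mutant mice and 180.0 to 355 CPM in control mice, and Kit at 16.1 to 21.8 CPM in mutant mice and 23.5 to 27.4 CPM in control mice. The T and NK cell list summed to at most 0.803 CPM in mutant mice and 0.652 CPM in control mice, with Cd3g, Cd4 and Ncr1 at 0 counts in every mouse.

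Genes of mitosis had higher values in cells from mutant mice across nearly the whole machinery, by a small amount each. Of the 50 members, 49 had a log2 fold change above 0 (98.0%, against 51.7% of the 12973 genes tested), with a median of 0.21 over the members and 0.0089 over all tested genes. The quartiles lay at 0.17 and 0.29, and the range ran from -0.10 for Cdc25b to 0.57 for Mad2l1. None passed the threshold of an adjusted p under 0.05 in edgeR's quasi-likelihood test, which called 9 genes in all (0.0694%), 3 of them higher (0.0231%). The smallest edgeR adjusted p among the members was 0.176, for the condensin gene Smc2. Without adjustment, 20 members had higher values at p under 0.05 (40.0%, against 4.96% of all tested genes) and 0 had lower ones (against 4.89%). DESeq2 called 1 member, Smc2, among 93 genes called of the 12973 tested. For 4 members every mutant mouse stood above every control mouse (1.87% of all tested genes), namely Top2a, Ckap2, Ncapd2 and Incenp, and for 0 members did every mutant mouse stand below (2.13% of all tested genes). In bulk RNA, more cells in mitosis and more of these transcripts per cell cannot be told apart.

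**Figure D1:**
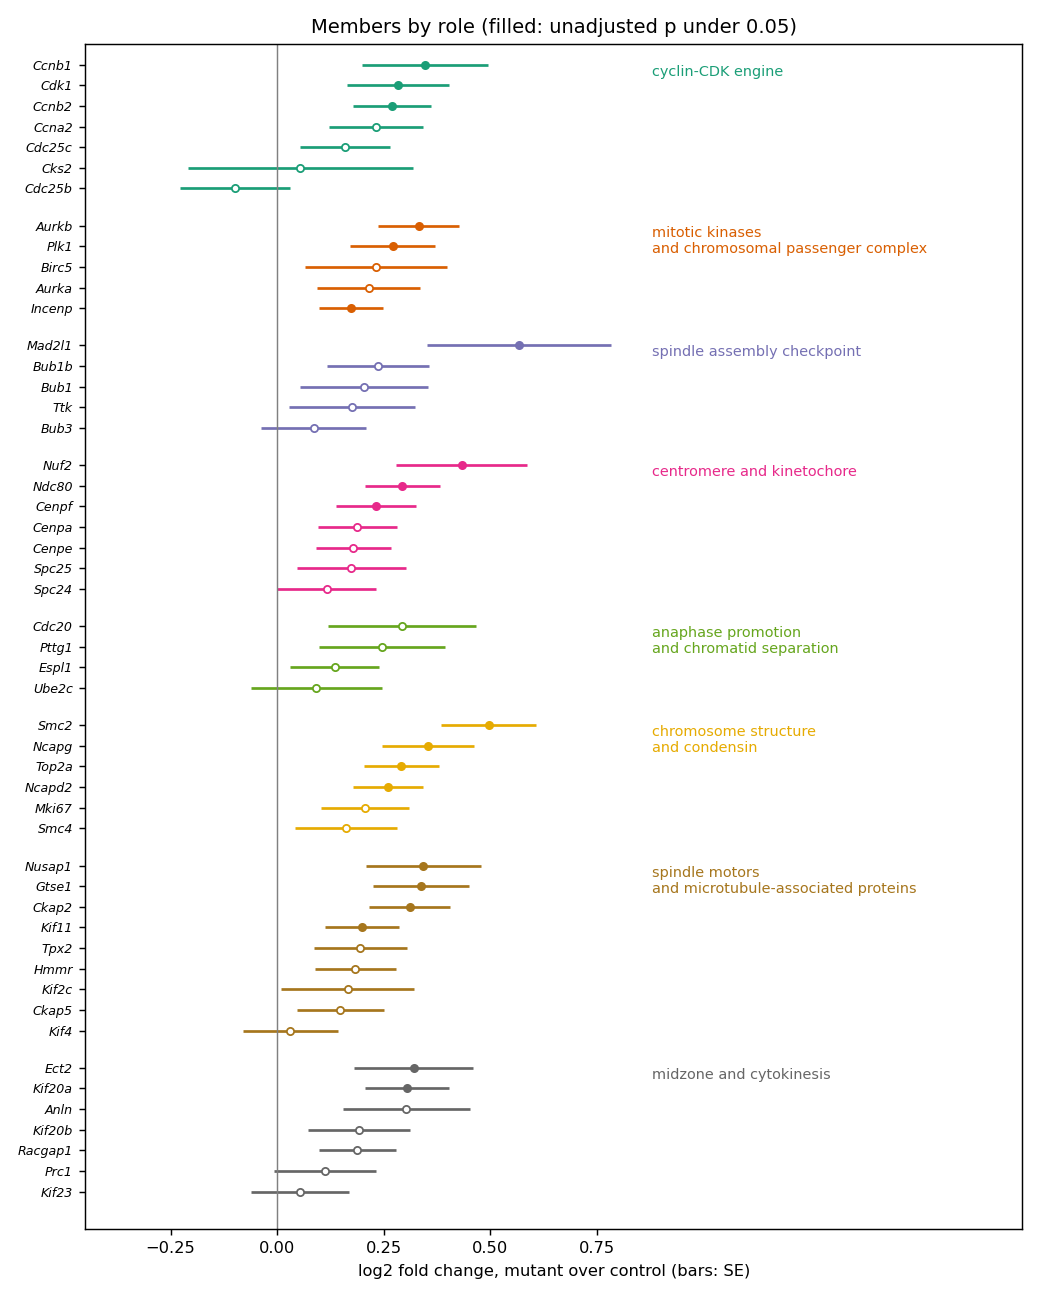
Log2 fold change of mutant over control (x axis) for each of the 50 members, grouped by role, with bars for the SE and filled points for an unadjusted p under 0.05. All points but that of Cdc25b, at -0.10, lie to the right of 0, and 20 are filled.

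By mouse, most members stood above their control mean in every mutant mouse. A score per mouse, which averages log2 CPM of the 50 genes and subtracts the control average, was 0.289, 0.173, 0.275, 0.289 and 0.0893 in mutant mice 6, 7, 8, 10 and 12, against -0.0579, -0.00169, -0.0569 and 0.116 in control mice 1 to 4. Mutant 12, the lowest of its group, thus lay below control 4, the highest of its own, and the groups overlapped by this pair. The difference of the means was 0.223, with an SD of 0.0892 among mutant mice and 0.0817 among control mice. Of the 50 members, 49 stood above their control mean in mutant 6, 36 in mutant 7, 45 in mutant 8, 48 in mutant 10 and 33 in mutant 12, against 42 in control 4 and 15 to 24 in the other control mice. Control 3 was the lowest of all 9 mice for 23 members and control 1 for 13.

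**Figure D2:**
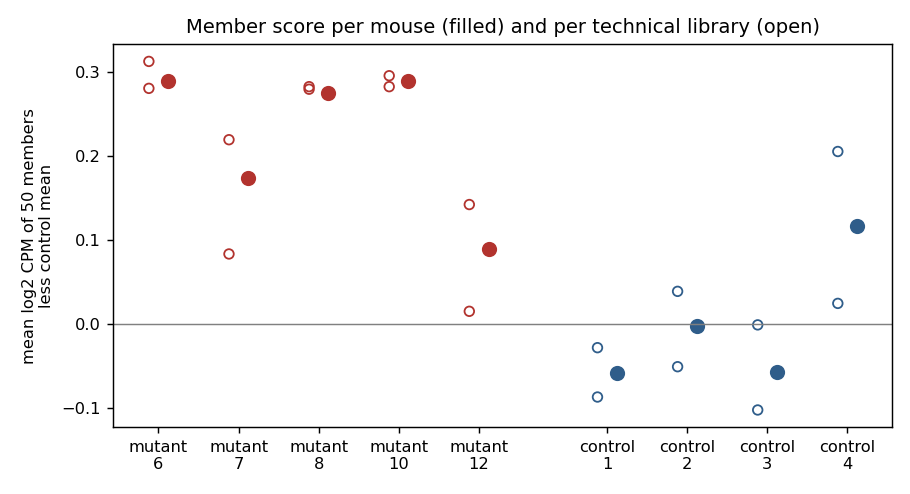
Member score (y axis, mean log2 CPM over the 50 members less the control mean) for each mouse (x axis), filled for the summed libraries and open for each technical library. Mutants 6, 8 and 10 sit at 0.275 to 0.289, above all control mice, while mutant 12 at 0.0893 lies below control 4 at 0.116.

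The technical libraries of 1 mouse differed in this score by 0.003 to 0.18, with a median of 0.0895. Control 4 had 0.205 in its first library and 0.0246 in its second, and mutant 12 had 0.0152 and 0.142. In the first libraries alone the scores were 0.0152 to 0.312 in mutant mice and -0.102 to 0.205 in control mice, and in the second libraries alone 0.0833 to 0.295 in mutant mice and -0.028 to 0.0389 in control mice, where the groups did not overlap. Of the members, 45 had a fold change above 0 in each set of libraries taken alone.

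Depth was higher on average in mutant mice, and the sums of the neutrophil and the monocyte and macrophage lists were lower. With the log2 total count as a covariate, 45 members stayed above 0 (against 50.6% of all tested genes), with a median of 0.19. The median SE was 0.154, against 0.114 without it. In that fit 4 members were higher at an unadjusted p under 0.05, as were 1.97% of all tested genes. By gene the values moved both ways. Ncapg went from 0.35 to 0.51 and Nuf2 from 0.43 to 0.11, while Plk1 went from 0.27 to 0.28. With each mouse thinned to the smallest total, the median was 0.23 and 48 members stood above 0 (against 51.3% of all tested genes). The erythroid list, which marks another cycling lineage of the marrow, had 6 of 6 tested members above 0 (against 51.7% of all tested genes). Of these, 2 were higher at an unadjusted p under 0.05 (against 4.96% of all tested genes). The list summed to 14.2 to 58.1 CPM in mutant mice and 5.98 to 51.4 CPM in control mice, with wide overlap. The 2 were Car1 and Hbb-bt. Car1 had 24 to 92 counts in mutant mice and 0, 14, 0 and 2 in control mice 1 to 4. Hbb-bt was at 3.3 ± 1.9 CPM in mutant mice and 0.90 ± 1.15 CPM in control mice, with overlap. Of the control mice, only control 2 had more than 10 counts of either gene, while every mutant mouse did. Both genes thus passed the low-count filter largely through the mutant mice, and their p-values are no support for a difference. Alas2 had 6 counts or fewer in every mouse. The neutrophil list, a lineage that has left the cycle when mature, summed to 212 to 427 CPM in mutant mice and 428 to 947 CPM in control mice, with 4 of 7 tested members below 0 and 1 higher and 1 lower at an unadjusted p under 0.05. Within that list Camp was at 139 ± 47.7 CPM in mutant mice and 386 ± 129 CPM in control mice, while Ltf was at 13.5 ± 4.43 CPM in mutant mice and 4.82 ± 3.67 CPM in control mice. The monocyte and macrophage list summed to 50.5 to 56.8 CPM in mutant mice and 67.9 to 78.3 CPM in control mice, with 5 of 5 tested members below 0. The part of these lists in the result was not tested.

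The promoters of these genes share sequence features that the choice of members did not use. In mouse and human, G2 and M phase promoters are known for the cell-cycle homology region (CHR), read by the LIN54 subunit of DREAM, and for the CCAAT box, bound by NF-Y. RefSeq promoter windows on GRCm38.p6, from 250 bases before to 50 after the start, were found for 42 of the 50 members, 1 window per gene. TTTGAA or TTCGAA, on either strand, occurred in 33 of them (78.6%), against 14.4% of the windows of tested genes and 19.4% of all windows of that length. CCAAT on either strand occurred in 33 (78.6%), against 39.3% of tested genes and 37.9% of all windows, and 21 of the 42 held 2 or more copies (against 15.6% of tested genes). Both kinds of letters were present in 29 (69.0%, against 6.14% of tested genes), and in 0 of the member windows did a CHR match overlap a CCAAT match. In 29 members a CHR match began within 50 bases of the start. Members with and without CHR letters had median log2 fold changes of 0.20 (33 genes) and 0.34 (9 genes), so the letters did not go with a larger difference.

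Shown here are the 250 bases upstream of the start for 6 members, in order of p among those given below with values per mouse that have a window, 5′ to 3′ on the strand of the gene, with capitals for CHR and CCAAT letters on either strand. They span chr4:52438971-52439220 (plus strand) for Smc2, chr17:71526858-71527107 (minus) for Ndc80, chr11:99024190-99024439 (minus) for Top2a, chr8:22185820-22186069 (minus) for Ckap2, chr15:85859457-85859706 (plus) for Gtse1 and chr9:70421555-70421804 (minus) for Ccnb2.
Smc2: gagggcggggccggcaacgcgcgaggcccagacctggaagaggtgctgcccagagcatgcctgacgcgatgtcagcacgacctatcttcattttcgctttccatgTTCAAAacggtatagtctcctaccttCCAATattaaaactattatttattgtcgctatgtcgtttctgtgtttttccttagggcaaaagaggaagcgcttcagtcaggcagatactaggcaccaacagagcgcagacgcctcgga
Ndc80: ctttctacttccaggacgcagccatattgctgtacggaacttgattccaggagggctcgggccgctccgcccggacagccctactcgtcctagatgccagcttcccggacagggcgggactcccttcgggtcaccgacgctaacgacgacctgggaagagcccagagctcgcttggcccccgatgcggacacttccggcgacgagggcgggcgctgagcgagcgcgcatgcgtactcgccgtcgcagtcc
Top2a: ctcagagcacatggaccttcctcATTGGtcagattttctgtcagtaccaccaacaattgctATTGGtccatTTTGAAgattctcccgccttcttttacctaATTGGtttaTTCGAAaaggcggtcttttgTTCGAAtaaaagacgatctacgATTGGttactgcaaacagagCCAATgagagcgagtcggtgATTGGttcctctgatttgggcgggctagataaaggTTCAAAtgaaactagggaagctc
Ckap2: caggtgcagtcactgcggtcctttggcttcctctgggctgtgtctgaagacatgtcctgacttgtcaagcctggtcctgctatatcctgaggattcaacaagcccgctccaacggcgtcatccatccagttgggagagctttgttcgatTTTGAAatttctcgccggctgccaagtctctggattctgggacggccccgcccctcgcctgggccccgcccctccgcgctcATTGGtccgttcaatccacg
Gtse1: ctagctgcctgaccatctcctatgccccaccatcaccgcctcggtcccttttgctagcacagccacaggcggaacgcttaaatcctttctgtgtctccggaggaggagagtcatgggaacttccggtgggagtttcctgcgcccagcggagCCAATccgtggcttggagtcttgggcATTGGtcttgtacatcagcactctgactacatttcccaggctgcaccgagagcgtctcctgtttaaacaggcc
Ccnb2: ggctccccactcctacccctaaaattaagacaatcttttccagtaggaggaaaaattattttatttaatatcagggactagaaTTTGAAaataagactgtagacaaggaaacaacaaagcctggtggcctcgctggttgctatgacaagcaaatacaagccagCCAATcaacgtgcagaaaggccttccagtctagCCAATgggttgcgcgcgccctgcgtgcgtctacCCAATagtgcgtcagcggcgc
The Top2a stretch holds 4 CHR matches and 6 CCAAT matches, and that of Ccnb2 holds 3 CCAAT matches and 1 CHR match, with another CHR match 5 bases after the start. The stretch of Gtse1 holds 2 CCAAT matches and no CHR match, and a further CCAAT match spans the start. Ndc80 holds neither upstream, and its CHR match begins 30 bases after the start. Smc2 and Ckap2 hold 1 of each upstream, and Smc2 has another CHR match 27 bases after the start.

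**Figure D3:**
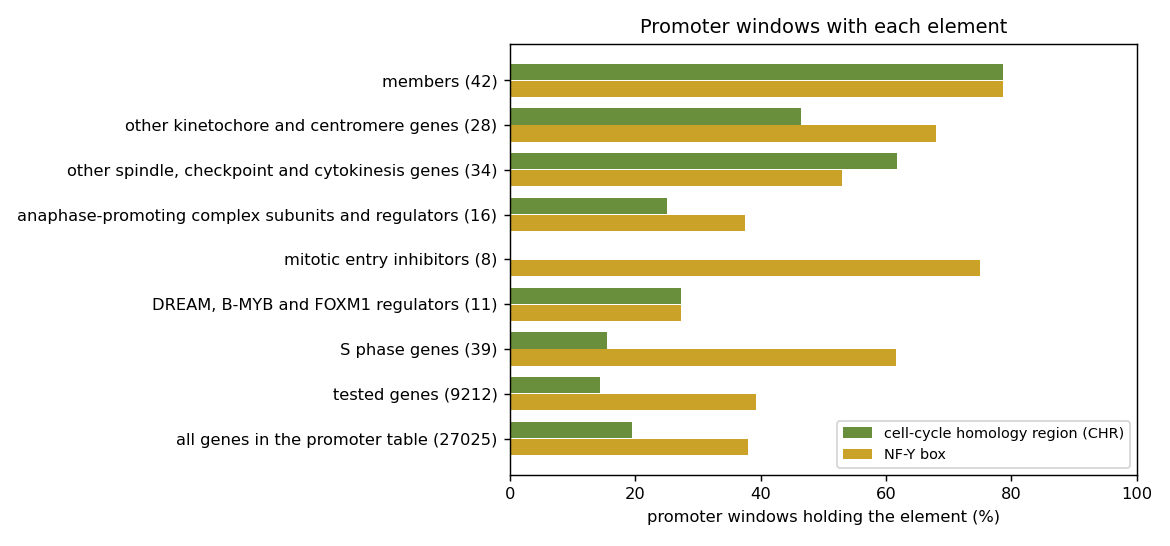
Share of RefSeq promoter windows (x axis, percent) that hold the letters of a CHR or an NF-Y box, for the members, the other lists and all genes, with the number of windows in brackets. The members stand at 78.6% for each element, against 14.4% and 39.3% of tested genes.

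The cyclin-CDK engine had 6 of 7 members above 0, of which 3 were higher at an unadjusted p under 0.05. Ccnb2, a B-type cyclin that activates CDK1, had 245, 252, 233, 235 and 217 CPM in mutant mice 6, 7, 8, 10 and 12, against 188, 190.3, 181 and 226 CPM in control mice 1 to 4. All mutant mice stood above controls 1 to 3, while control 4 lay above mutant 12 (log2 fold change 0.27, SE 0.09, edgeR adjusted p = 0.369). Reads of the copy Ccnb2-ps may be shared with it. Cdk1, the kinase that drives entry into mitosis, had 254, 267, 291, 293 and 214 CPM in mutant mice, against 191, 203, 214 and 259 CPM in control mice (0.28, SE 0.12, adjusted p = 0.451). Mutants 6 and 12 lay below control 4, and with the depth covariate the Cdk1 value was 0.09. Ccnb1, the main mitotic cyclin, averaged 39.5 ± 6.09 CPM in mutant mice and 31.0 ± 6.07 CPM in control mice (SD, n = 5 and 4), and its log2 fold change of 0.35 became 0.12 with the depth covariate.

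Cdc25b, a phosphatase that removes the inhibitory phosphates from CDK1, was the only member with a fold change below 0. It had 20.2, 17.5, 24.7, 22.9 and 18.8 CPM in mutant mice, against 19.5, 21.7, 21.1 and 26.7 CPM in control mice, and the groups overlapped widely (-0.10, SE 0.13, adjusted p = 0.827). Its sister gene Cdc25c had 17.2 ± 1.49 CPM in mutant mice and 15.4 ± 1.22 CPM in control mice. Cks2, a small CDK-binding subunit, varied most: it ranged from 195 to 494 CPM in mutant mice and from 244 to 511 CPM in control mice (0.05, SE 0.26). Counts of Cdc25b may include reads of Spef1, which overlaps it on the other strand, since the strand setting is not given.

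The mitotic kinases and the chromosomal passenger complex had all 5 members above 0 and 3 higher at an unadjusted p under 0.05. Aurkb, the catalytic subunit of the passenger complex that corrects faulty attachments, had 172, 184, 162, 179 and 171 CPM in mutant mice, against 135, 125, 129 and 162 CPM in control mice. Only control 4 reached the lowest mutant (0.33, SE 0.10, adjusted p = 0.307). Plk1, the Polo-like kinase that matures centrosomes and helps start mitosis, had 61.6, 54.3, 75.7, 72.0 and 65.1 CPM in mutant mice, against 53.8, 54.1, 52.6 and 57.4 CPM in control mice (0.27, SE 0.10, adjusted p = 0.403). Here mutant 7 was the mouse that fell among the controls. Incenp, the scaffold of the passenger complex, showed a small and even difference, at 137 ± 2.10 CPM in mutant mice and 121 ± 6.11 CPM in control mice with no overlap (0.17, SE 0.08). Birc5, the survivin subunit, was uneven, from 105 to 187 CPM in mutant mice and from 106 to 140.4 CPM in control mice.

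In the spindle assembly checkpoint all 5 members were above 0 and 1 was higher at an unadjusted p under 0.05. Mad2l1, whose product binds CDC20 to hold back anaphase, had the largest fold change of all members and a wide spread: 89.7, 102, 47.3, 67.9 and 66.1 CPM in mutant mice, against 41.2, 38.8, 65.9 and 55.3 CPM in control mice. Mutant 8 lay among the controls (0.57, SE 0.22, adjusted p = 0.408). Bub1b, encoding the BUBR1 component of the same inhibitory complex, had 50.7, 45.6, 66.1, 58.9 and 53.0 CPM in mutant mice, against 43.2, 40.5, 49.2 and 53.2 CPM in control mice, with overlap (0.24, SE 0.12, adjusted p = 0.537). Bub3 was closest to 0 in this group, at 219.7 ± 24.0 CPM in mutant mice and 207 ± 32.6 CPM in control mice, and Ttk, the kinase that starts checkpoint signalling, was at 8.39 ± 1.26 CPM in mutant mice and 7.41 ± 0.96 CPM in control mice.

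Centromere and kinetochore genes were all above 0, 7 of 7, with 3 higher at an unadjusted p under 0.05. Ndc80 and Nuf2 encode the paired arms of the complex that grips the microtubule. Ndc80 had 55.7, 63.3, 58.3, 55.1 and 49.1 CPM in mutant mice, against 49.5, 44.8, 44.4 and 45.03 CPM in control mice (0.29, SE 0.09, adjusted p = 0.311). Control 1 passed mutant 12 by a little, and the other mice kept apart. Nuf2 had 61.3, 58.2, 63.2, 61.7 and 40.9 CPM in mutant mice, against 30.7, 43.5, 45.1 and 49.6 CPM in control mice (0.43, SE 0.15, adjusted p = 0.386). For Nuf2 mutant 12 stood apart from the other mutant mice and below 3 of the control mice, and the depth covariate left 0.11. Their partners Spc24 and Spc25 were at 0.12 (SE 0.12) and 0.17 (SE 0.13). Cenpa, the histone H3 variant that marks the centromere, had 303 ± 29.8 CPM in mutant mice and 266 ± 5.91 CPM in control mice.

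The genes of anaphase promotion and chromatid separation, 4 in all, were above 0, and 0 of them was at an unadjusted p under 0.05. Cdc20, the activator of the anaphase-promoting complex, had 81.0, 65.7, 109, 111 and 63.5 CPM in mutant mice, against 72.7, 66.7, 60.6 and 80.6 CPM in control mice. Mutants 8 and 10 were high while mutants 7 and 12 lay within the control range (0.29, SE 0.17, adjusted p = 0.594). Without mutant 10 the Cdc20 value was 0.18, and it was 0.45 in the first libraries and 0.15 in the second. Pttg1, the securin that restrains separase, had 34.5, 38.3, 33.7, 34.8 and 21.6 CPM in mutant mice, against 24.3, 26.2, 30.7 and 28.9 CPM in control mice (0.25, SE 0.15, adjusted p = 0.597). Without a depth covariate 4 of the 5 mutant mice exceeded every control mouse and mutant 12 lay below them all, and with it the Pttg1 value was -0.06. Its value was 0.40 in the first libraries alone and 0.10 in the second. Espl1, separase itself, was at 0.14 (SE 0.10), and Ube2c, the ubiquitin-conjugating enzyme of the complex, at 0.09 (SE 0.15).

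Chromosome structure and condensin genes had the highest median of the 8 role groups, 0.28, with 6 of 6 above 0 and 4 of them higher at an unadjusted p under 0.05. Smc2, an ATPase arm of condensin, had 75.02, 69.3, 70.9, 53.4 and 61.6 CPM in mutant mice, against 44.5, 53.6, 46.2 and 42.8 CPM in control mice. It was 1.41-fold higher (0.50, SE 0.11, edgeR adjusted p = 0.176, DESeq2 adjusted p = 0.0171), and only mutant 10 and control 2 overlapped. Top2a, the topoisomerase that untangles sister chromatids, had 345, 353, 336, 314 and 308 CPM in mutant mice, against 266, 263, 250.5 and 302 CPM in control mice (0.29, SE 0.09, adjusted p = 0.323). Every mutant mouse exceeded every control mouse for Top2a. Ncapd2 and Ncapg, non-SMC subunits of condensin, had 86.0 ± 5.42 and 20.5 ± 1.45 CPM in mutant mice, against 71.8 ± 4.29 and 16.1 ± 1.97 CPM in control mice. The other ATPase arm, Smc4, was at 0.16 (SE 0.12), and Mki67, whose product coats mitotic chromosomes and serves as the Ki-67 proliferation marker, at 0.21 (SE 0.10).

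Among spindle motors and microtubule-associated proteins 9 of 9 were above 0 and 4 were higher at an unadjusted p under 0.05. Ckap2, a microtubule-stabilising protein, had 37.4, 38.5, 32.4, 32.5 and 33.5 CPM in mutant mice, against 25.04, 28.3, 27.8 and 31.2 CPM in control mice, with no overlap (0.31, SE 0.10, adjusted p = 0.323). Gtse1, a microtubule-binding protein of G2 and M phase, had 50.2, 46.4, 56.6, 49.9 and 49.2 CPM in mutant mice, against 31.5, 42.8, 47.0 and 38.3 CPM in control mice (0.34, SE 0.11, adjusted p = 0.369). Mutant 7 lay just under control 3, and the depth covariate left 0.20 for Gtse1. Kif11, the motor that pushes spindle poles apart, had 83.7 ± 6.19 CPM in mutant mice and 72.9 ± 5.12 CPM in control mice. Kif4, a chromosome-bound motor on the X chromosome, was near 0 at 0.03 (SE 0.11).

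In the midzone and cytokinesis group 7 of 7 were above 0 and 2 were higher at an unadjusted p under 0.05. Kif20a, a motor of the central spindle, had 66.1, 61.7, 66.4, 63.9 and 53.8 CPM in mutant mice, against 42.8, 51.9, 50.6 and 56.6 CPM in control mice, with mutant 12 below control 4 (0.31, SE 0.10, adjusted p = 0.345). With the depth covariate the Kif20a value was 0.14. Ect2, the exchange factor that switches on RhoA at the cleavage furrow, had 23.1, 26.3, 16.6, 19.7 and 25.3 CPM in mutant mice, against 18.7, 15.6, 17.8 and 18.96 CPM in control mice (0.32, SE 0.14, adjusted p = 0.472). Mutant 8 was among the controls for Ect2. The Ect2 value was 0.20 without the first library of mutant 7 and 0.42 with the depth covariate. Anln, which organises the contractile ring, was at 0.30 (SE 0.15), while Kif23 and Prc1, which bundle the midzone, were at 0.05 (SE 0.12) and 0.11 (SE 0.12). Averaged over the group, all 5 mutant mice exceeded all 4 control mice here and for the kinetochore and the chromosome structure groups. For the kinetochore group the gap was small, with the lowest mutant mouse at 0.103 and the highest control mouse at 0.0924. The count was 4 of 5 mutant mice for the checkpoint and spindle motor groups, and 3 of 5 for the cyclin-CDK, kinase and anaphase groups.

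**Figure D4:**
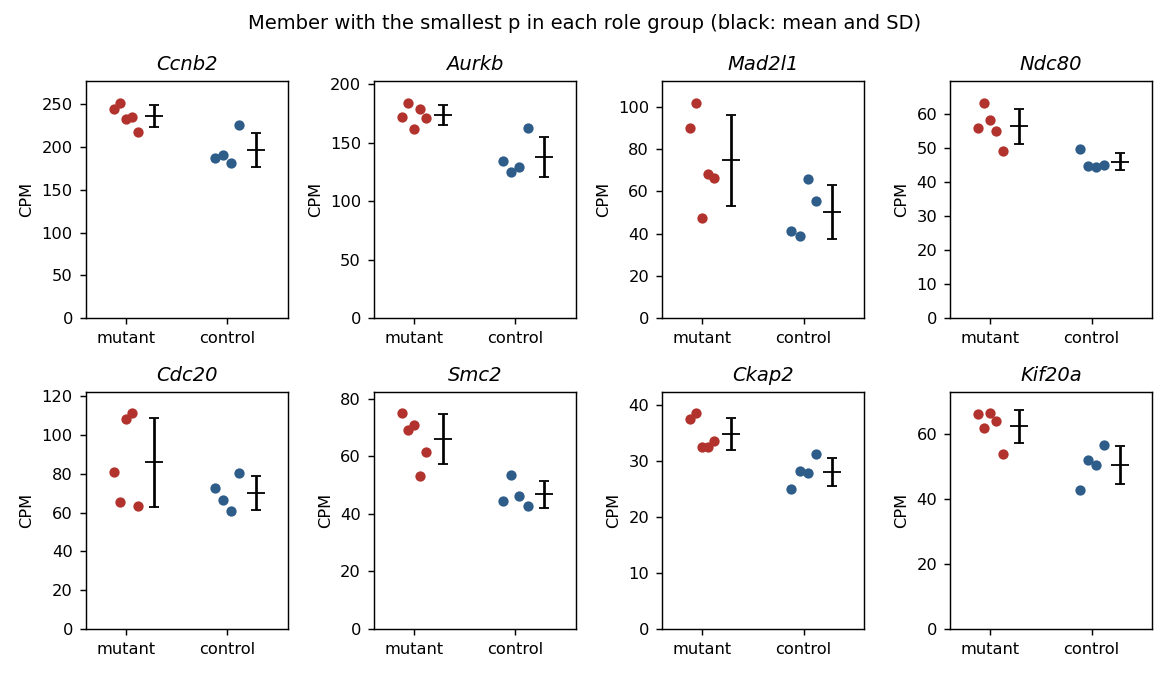
CPM of the member with the smallest p in each role group (y axis, from 0), 1 point per mouse, with mutant mice left of control mice and black marks for the mean and SD. Ckap2 shows no overlap of the groups, whereas Mad2l1 and Cdc20 spread from 47.3 to 102 and from 63.5 to 111 CPM in mutant mice.

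Other genes of mitosis, listed by function with earlier results of these data known, also had mostly higher values in mutant mice. Of 32 other kinetochore and centromere genes, 32 were above 0 (median 0.18) and 8 were higher and 0 lower at an unadjusted p under 0.05. Cenph, an inner kinetochore subunit, had 54.4 ± 3.18 CPM in mutant mice and 41.3 ± 2.68 CPM in control mice (0.40, SE 0.08, edgeR adjusted p = 0.146), and Spdl1, which brings dynein to kinetochores, was at 0.52 (SE 0.16). Of 37 other spindle, checkpoint and cytokinesis genes, 37 were above 0 (median 0.22) and 12 were higher and 0 lower at that level. Over all tested genes 51.7% were above 0, 4.96% were higher and 4.89% lower. Mastl, the Greatwall kinase that keeps a CDK1-opposing phosphatase off, had 6.27 ± 0.67 CPM in mutant mice and 3.84 ± 0.58 CPM in control mice (0.71, SE 0.16, adjusted p = 0.176), and Tacc3, a spindle protein, was at 0.32 (SE 0.09). No gene of these lists was called by edgeR.

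The regulators around them had more mixed values. Of 17 subunits and regulators of the anaphase-promoting complex, 14 were above 0 (82.4%, against 51.7% of all tested genes), with a median of 0.09. At an unadjusted p under 0.05, 1 was higher (5.88%, near the 4.96% of all tested genes). This was the inhibitor gene Fbxo5, with 50.4 ± 5.67 CPM in mutant mice and 41.2 ± 5.06 CPM in control mice. Anapc10, a subunit that helps to bind substrates, was at 0.59 (SE 0.27). Of 10 genes that restrain entry into mitosis, 4 were above 0 and 6 below (median -0.03). At an unadjusted p under 0.05, 1 was lower (against 4.89% of all tested genes), and 1 gene in so short a list carries little weight. It was the stress gene Gadd45g, with 2.17 ± 0.46 CPM in mutant mice and 3.33 ± 0.88 CPM in control mice. Its relative Gadd45a was at -0.29 (SE 0.19), and Cdkn1a, encoding the CDK inhibitor p21, at -0.03 (SE 0.14).

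Of 15 transcriptional regulators of these promoters, 12 were above 0 (median 0.08), 5 were higher and 0 lower at an unadjusted p under 0.05. Mybl2, encoding B-MYB, had 62.8 ± 9.86 CPM in mutant mice and 45.3 ± 4.63 CPM in control mice with no overlap (0.47, SE 0.12, adjusted p = 0.254). Nfyb, a subunit of NF-Y, was at 0.37 (SE 0.11), whereas Foxm1 had 42.3 ± 7.01 CPM in mutant mice and 38.0 ± 5.75 CPM in control mice (0.15, SE 0.14). Genes of S phase, the step before, had 42 of 49 above 0 with a median of 0.13, and 7 were higher and 0 lower at an unadjusted p under 0.05. Shares of 40.0% of the members and 14.3% of the S phase genes were higher at that level, against 4.96% of all tested genes. The difference between these lists was not tested.

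By position on GRCm38, the members are spread over 17 chromosomes, with at most 9 on 1 of them. Smc2 (ENSMUSG00000028312) lies on chromosome 4, 52439243 to 52488260, Aurkb (ENSMUSG00000020897) on 11, 69045647 to 69051664, Ndc80 (ENSMUSG00000024056) on 17, 71496100 to 71526857, Top2a (ENSMUSG00000020914) on 11, 98992943 to 99024189, Ckap2 (ENSMUSG00000037725) on 8, 22168160 to 22185819, and Mad2l1 (ENSMUSG00000029910) on 6, 66535390 to 66547220. Another annotated gene overlaps 28 of the members on either strand, such as Cdc23 for Kif20a and Elovl1 for Cdc20, and reads of such a neighbour may have entered their counts.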

How the data were processed

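The authors deposited 1 table of estimated counts, 54347 genes by 18 libraries, of which 11.3% of the values are not whole. Per the submitters' processing notes, the tools were bcl2fastq, FastQC and Salmon 1.3 and the build GRCm38. The sources used here give no annotation release, strand setting or use of molecular identifiers. Libraries of transcript 3′ ends (MARS-seq, NextSeq 500) were made per the labels' protocols. The first 18 characters of each ID were matched to GENCODE mouse release 21, which named 54094 IDs and left 253 without a symbol.

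Both libraries of a mouse, 3825500 to 15071673 counts each, were summed and rounded. The mouse was the unit of replication, and mouse numbers are not shared between groups, so nothing was paired. The test was that of edgeR 4.0.16 under R 4.3.3 (filterByExpr at a minimum count of 10, TMM, quasi-likelihood F-test, 2-sided, no covariate, Benjamini-Hochberg over 12973 genes). The SE was had by dividing the unshrunk coefficient by the root of F. The biological coefficient of variation was 18.7%. The score used log2 CPM with a prior count of 2, and role averages log2 CPM. Lists were described by counts and medians, with no test of a list as a whole. A floor of 3 counts was 0.12 to 0.237 CPM per mouse and covers counting error only.

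Named with values per mouse were the 2 members with the smallest p in each role group and any member below 0. Of each other list the 2 genes with the smallest p were named, with Foxm1, Mybl2 and Cdkn1a. Other genes named were chosen after their values were seen. The members and the lists were chosen with earlier results of these data known. Alternatives were DESeq2 1.42.0, limma-voom (limma 3.58.1), other scalings, filters and thresholds, each library set alone, a depth covariate, and leaving out each mouse. Thinning, and a fit lacking the first library of mutant 7, were chosen after seeing the data. The test step was also run on simulated data, with fold changes larger than the median of the members. That run does not show whether differences as small as theirs could be called. Promoter windows are those of RefSeq on GRCm38.p6.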

Additional observations from a re-analysis of the deposited data

Results flagged for a closer look

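In 3 of 36 groups of 4 or 5 mice examined (the 17 members named with values per mouse and the member score), 1 mouse lay far from the others of its group by Dixon's criterion, and chance alone flags about 1 group in 20. Mutant 12 was low for the kinetochore gene Nuf2, at 40.9 CPM against 58.2 to 63.2 CPM in the other mutant mice, and for the securin gene Pttg1, at 21.6 CPM against 33.7 to 38.3 CPM. Control 1 was high for the kinetochore gene Ndc80, at 49.5 CPM against 44.4 to 45.03 CPM in the other control mice.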

How the results depend on the processing

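The median log2 fold change of the members lay between 0.19 and 0.27 under every alternative run. Above 0 stood 45 to 49 members, against 48.7% to 53.3% of all tested genes. The count of members higher at an unadjusted p under 0.05, 20 in the reported fit, was 9 in the first libraries alone and 4 with the depth covariate. It was 13 (without mutant 6) to 29 (without mutant 12) when a mouse was left out. The share over all tested genes moved as well, from 4.96% in the reported fit to 4.72%, 1.97%, 4.24% and 6.28% in these settings, in that order. The other alternatives gave 17 to 22, against 4.07% to 5.53% of all tested genes. Members called numbered 1 with DESeq2 (Smc2) and 0 in every other alternative. Over all genes the count of calls, 9 in the reported fit, was 93 with DESeq2, 62 with limma-voom on 18 libraries, 21 with no low-count filter, 3 in the second libraries, and 0 in the first libraries, with a mean of at least 10 CPM, with the covariate, after thinning and without the first library of mutant 7. It was 0 to 7 when a mouse was left out. At a mean of at least 10 CPM, 49 members were tested, since Ttk fell out. Of the 17 members named with values per mouse, Pttg1 changed sign with the covariate (-0.055) and Cdc25b without control 4 (0.0031, with -0.17 without mutant 8 as the other end of its range), and neither was called. Why these values moved was not tested. No paired analysis was possible because mouse numbers are not shared between the groups. At this depth the members' counts, 88 or more in every mouse, were not at the floor. The spread between mice and that between technical libraries were not separated.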

Other observations

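Tk1, the thymidine kinase of the S phase salvage route, had 180.3 ± 10.3 CPM in mutant mice and 135 ± 8.28 CPM in control mice with no overlap (log2 fold change 0.42, SE 0.08, edgeR adjusted p = 0.138), a smaller p than that of any mitotic member. Ccne2, the E-type cyclin of S phase entry, had 12.1 ± 3.32 CPM in mutant mice and 8.65 ± 0.53 CPM in control mice (0.48, SE 0.18, adjusted p = 0.408). Over the whole S phase list, promoter windows differed from those of the members. Of 39 windows of S phase genes, 6 held CHR letters (15.4%, against 14.4% of tested genes), while 24 held CCAAT letters (61.5%, against 39.3%). Of the windows of genes that restrain mitotic entry, 0 of 8 held CHR letters and 6 of the 8 held CCAAT letters. The lists of other mitotic genes lay nearer the members, with CHR letters in 21 of 34 windows of other spindle, checkpoint and cytokinesis genes (61.8%) and in 13 of 28 of other kinetochore and centromere genes (46.4%), against 33 of 42 member windows (78.6%).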
